A study of Mus musculus with 14 samples.

Results

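The genes described here encode the proteins of the cytoplasmic ribosome, in the liver and kidney of transgenic mice fed a normal or a high salt diet. They were chosen by name alone: every row of the liver and kidney count tables called Rpl or Rps followed by a number, with or without a closing letter a, x, y or l and a digit, together with Rplp0, Rplp1, Rplp2 and Rpsa. The rule found 88 rows among the 22263 genes of both tables, 88 of 19660 in liver and 87 of 20203 in kidney, where Rpl39l has no row. By the GENCODE M21 annotation 82 of the 88 are protein coding and 6 are processed pseudogenes whose names fit the rule (Rpl32l, Rpl6l, Rps12l1, Rps3a2, Rps3a3 and Rps4l). The large 60S subunit accounts for 52 rows and the small 40S subunit for 36.

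A ribosome is built from ribosomal RNA and a set of proteins, most of them needed in equal numbers, so their mRNAs are usually abundant and of similar level. Most of these mRNAs start with a run of pyrimidines, the terminal oligopyrimidine tract, through which the kinase complex TORC1 and the protein Larp1 set how much of each is translated and stored. In liver, ribosome number follows feeding and protein supply, and mouse genes for these proteins are known for their many processed copies elsewhere in the genome.

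All animals were 12-week-old males with a human angiotensinogen transgene of the -6A haplotype (genotype Hap -6A). Groups differed by tissue and diet: liver on a normal diet (4 libraries, called 1 to 4), liver on high salt (4 libraries, called HS5 to HS8 as the columns name them), kidney on a normal diet and kidney on high salt (3 libraries each, called 1 to 3). All groups carry the transgene, so none is a control for it; the labels name neither its cell type of expression nor the founder line, the salt content or the length of the diet. They also do not say that replicates came from separate animals, so p-values measure the spread between these samples, which may be partly technical.

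Gene counts outside the mitochondrial genome (rows starting mt-) came to between 28.7 × 1000000 and 43.3 × 1000000 per liver library and between 11.4 × 1000000 and 14.9 × 1000000 per kidney library. All levels below are counts per 1000000 of that total (CPM). Rows of the mitochondrial genome, left out of it, took 2.30% and 2.06% of all counts in normal diet liver libraries 1 and 2, between 11.3% and 29.6% in the other 6 liver libraries and between 23.5% and 41.2% in kidney. Libraries 1 and 2 also had the lowest counts of the nuclear RNA Malat1 in liver (36.6 and 27.0 CPM against 111 to 273 in the others), so the main liver results are given with and without them. The tissue labels held: 6 hepatocyte markers summed to at least 58567 CPM in every liver library and to at most 180 in kidney, and 4 proximal tubule markers to at least 2651 CPM in kidney and at most 9.47 in liver.

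Most of the joint counts of these genes and of rows that match their mRNAs did not lie on the genes' own rows. A comparison of the spliced sequences matched 676 rows, of which 664 are annotated pseudogenes, to a ribosomal protein mRNA (at least 85% identity over at least 50% of the copy); 374 of them have a row in the liver table and 640 in the kidney table. These copy rows held between 63.0% and 64.3% of the joint counts of genes and copies in the liver libraries and between 60.1% and 61.7% in the kidney libraries. Reads from a gene and from a near-identical copy cannot be told apart by sequence, so the level of a row depends on how the authors' expectation-maximisation counting divided such reads. Whether counts on copy rows came from the gene or from a transcribed copy was not tested. The pairs below were chosen to show both ends of this. They give 90 bases of coding sequence of a gene and the matching stretch of its best copy (GENCODE M21, GRCm38, 5′ to 3′), with bases that differ within a pair in capitals. Rpl5, a 60S protein that binds the small ribosomal RNA of that subunit, lies at chr5:107900502-107909005 on the plus strand, and its coding bases 1 to 90 equal those of the transcribed pseudogene Gm15500 at chr7:114706074-114706163 on the minus strand. Rps3, a 40S protein at the mRNA entry channel, lies at chr7:99477896-99483738 on the minus strand, and coding bases 181 to 270 of its spliced mRNA differ at 6 of 90 positions from the pseudogene Gm8130 at chr16:23050303-23050392 on the plus strand.
Rpl5: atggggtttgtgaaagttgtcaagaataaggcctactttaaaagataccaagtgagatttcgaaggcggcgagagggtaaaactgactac
Gm15500: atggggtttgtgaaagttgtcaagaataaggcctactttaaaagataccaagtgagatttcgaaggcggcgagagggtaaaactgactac
Rps3: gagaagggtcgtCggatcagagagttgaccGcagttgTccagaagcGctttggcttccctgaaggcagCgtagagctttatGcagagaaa
Gm8130: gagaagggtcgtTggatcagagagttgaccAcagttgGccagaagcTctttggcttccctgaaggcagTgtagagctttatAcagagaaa

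For the Rpl5 pair nearly all counts were placed on the pseudogene. In the liver libraries 1 to 4 and HS5 to HS8, Gm15500 had 819, 959, 714, 714, 498, 473, 824 and 576 CPM. The Rpl5 row had 6.23, 5.62, 9.77, 8.83, 6.90, 6.84, 12.2 and 7.03 CPM in the same libraries, or 1.12% of the joint count of Rpl5 and its copies. For the Rps3 pair the reverse held: the Rps3 row kept 99.7% of the joint count in liver and 98.5% in kidney. Over the coding genes the median share kept on the own row was 25.9% in liver (82 genes) and 37.4% in kidney (81 genes). It was under 10% for 19 genes in liver and 17 in kidney and at least 90% for 13 and 10. Rps27, a 40S protein with a zinc finger, was the extreme: its row had 0.463 to 1.30 CPM in liver, while its intron-less copy Rps27rt had 282 to 549 CPM.

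The share kept on the own row followed how much of an mRNA is distinct from the copies. With under 30% of its 50-base windows free of a match to a copy, a gene kept a median of 10.8% in liver (25 genes, 0.207% to 39.5%). With 30 to 60% free the median was 19.3% (29 genes), and with at least 60% free it was 81.1% (28 genes, 8.97% to 100%). In kidney the medians of these classes were 16.8%, 36.7% and 87.3%. Across genes Spearman's rho was 0.69 in liver and 0.66 in kidney, a description over 82 and 81 genes that share their libraries. Rpl5 shows the limit of that measure: 57.6% of the windows of its annotated mRNA of 2045 bases were free, and its row still held 1.12%. For these reasons each result is given for the rows as deposited and, where it differs, for families, in which a gene and its matched copy rows were summed.

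**Figure D1:**
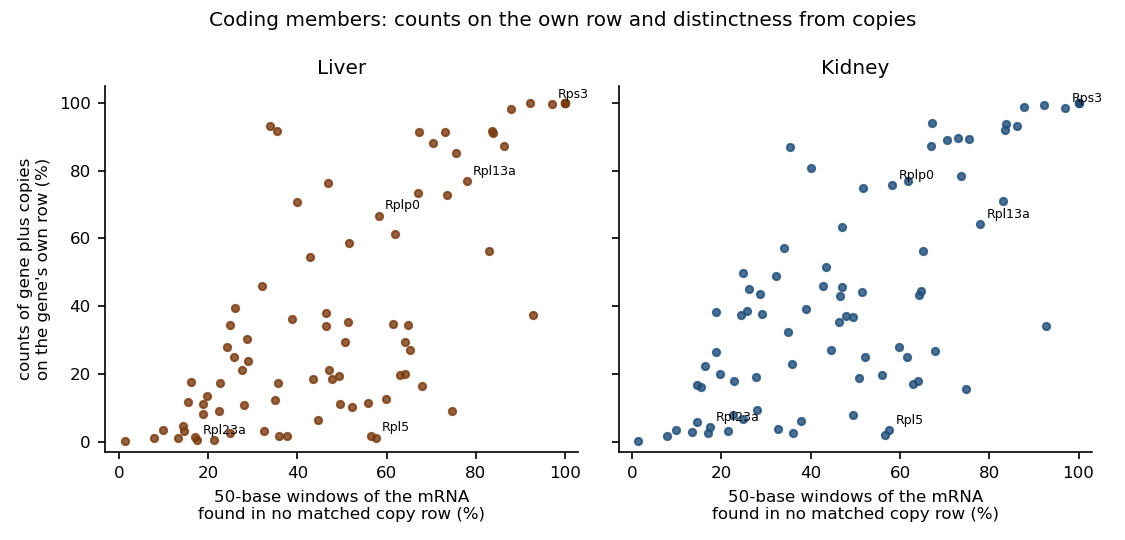
Share of the joint counts of a coding ribosomal protein gene and its copies that lay on the gene's own row (y axis, %) against the share of 50-base windows of its mRNA found in no matched copy (x axis, %), 1 point per gene, mean over the libraries of liver (left) and kidney (right). Rps3 lies at the upper right with 99.7% in liver, Rpl5 low at 57.6% of windows free with 1.12%.

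The start sites were examined for the pyrimidine tract, because these mRNAs are known for it and their counts below vary together between libraries. RefSeq start sites (GRCm38.p6) were found for 63 of the 88 rows (75 starts). In the 30 bases around a start, the strand that reads as the mRNA was searched for a run of at least 8 pyrimidines. It was present at 38.7% of the members' starts, against 12% of all 32851 listed starts. The letters CTTTCC were present at 13.3% against 1.42%, and on the opposite strand (GGAAAG) at 0% against 1.27%; CTTTCC can lie inside such a run. The windows of 6 coding genes among those with the highest mean CPM and only 1 listed start follow, with that of the low muscle-type paralog Rpl3l for comparison. They run from 15 bases before the start to 15 after its first base included, 5′ to 3′, with the longest run of pyrimidines in capitals. They are at chr10:128549154-128549183 (Rpl41, minus), chr7:45128731-45128760 (Rpl13a, minus), chr7:99483695-99483724 (Rps3, minus), chr9:64173372-64173401 (Rpl4, plus), chr5:115559452-115559481 (Rplp0, plus), chr7:3704026-3704055 (Rps9, plus) and chr17:24727811-24727840 (Rpl3l, plus).
Rpl41: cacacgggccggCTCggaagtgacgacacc
Rpl13a: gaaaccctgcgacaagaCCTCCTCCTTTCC
Rps3: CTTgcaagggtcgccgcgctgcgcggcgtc
Rpl4: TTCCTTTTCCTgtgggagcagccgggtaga
Rplp0: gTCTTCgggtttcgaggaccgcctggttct
Rps9: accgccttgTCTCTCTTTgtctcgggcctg
Rpl3l: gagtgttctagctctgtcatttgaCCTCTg

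The longest runs in these windows were 13 bases for Rpl13a, 11 for Rpl4, 9 for Rps9, 5 for Rplp0 and Rpl3l and 3 for Rpl41 and Rps3. A listed start a few bases from the one used in these tissues would move the window, so a short run says only that the letters are not there.

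Ribosomal protein rows took a small and uneven part of each library. In liver they held 0.987%, 1.05%, 0.795% and 0.900% of the counts on the normal diet (libraries 1 to 4) and 0.694%, 0.718%, 1.02% and 0.895% on high salt (HS5 to HS8), that is 9318 ± 1094 CPM and 8327 ± 1559 CPM (SD, n = 4 each). The diets overlapped, with HS7 close to normal diet libraries 1 and 2. Without libraries 1 and 2 the normal diet mean was 8472 CPM. In kidney the rows held 0.899%, 2.53% and 2.48% on the normal diet (libraries 1 to 3) and 1.25%, 2.04% and 1.32% on high salt, or 19683 ± 9261 and 15368 ± 4385 CPM (SD, n = 3 each). Kidney normal diet library 1 was in the range of the liver libraries, and the other 5 kidney libraries were above every liver library. With the copies added, shares were 1.91% to 2.91% in liver, 2.25%, 6.61% and 6.45% in kidney on the normal diet and 3.26%, 5.33% and 3.42% on high salt. The order of the kidney libraries stayed as it was.

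**Figure D2:**
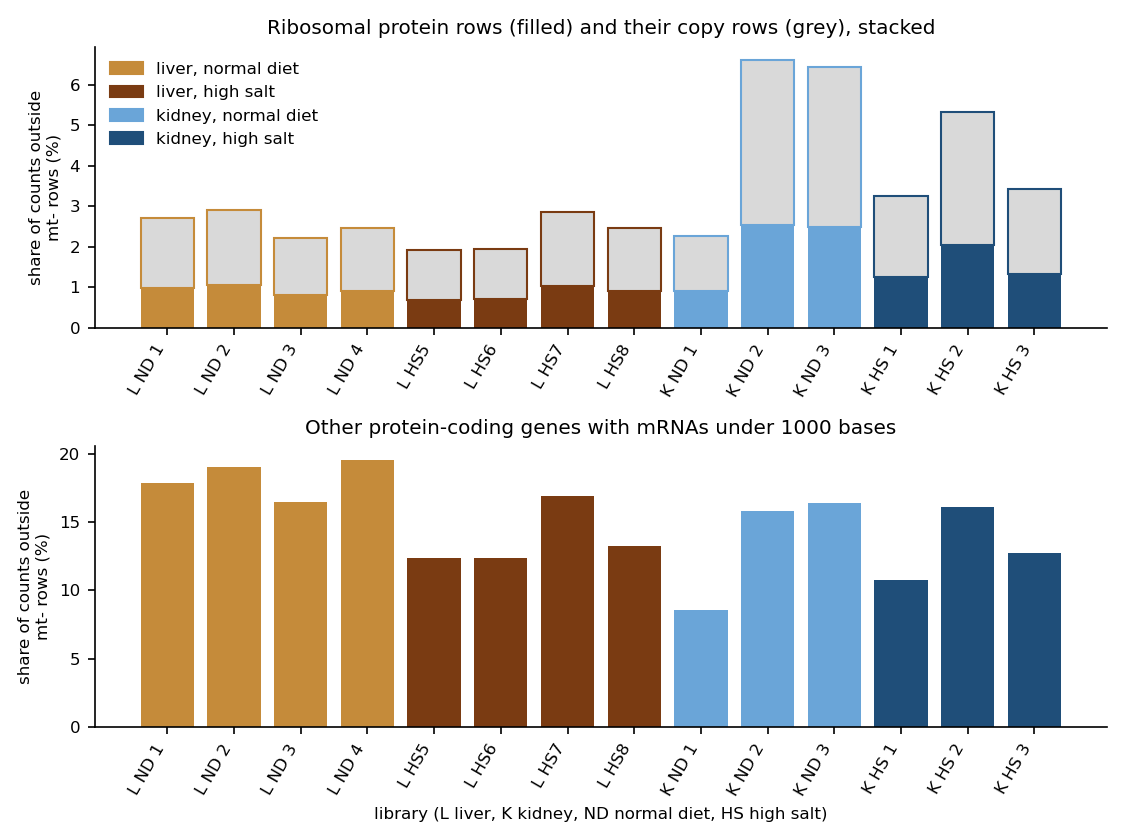
Upper panel: share of the counts outside mt- rows on ribosomal protein rows (filled) and on their copy rows (grey, stacked) in each of the 14 libraries. Lower panel: the share on other protein-coding genes with mRNAs under 1000 bases. Both axes are in % and start at 0. Kidney normal diet library 1 is the lowest kidney library in both panels, at 2.25% and 8.54%.

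The kidney libraries differed from each other across nearly the whole set. In normal diet library 1, 83 of 87 rows were below both other normal diet libraries, with a median log2 ratio to their mean of -1.43. As families, 80 of 81 coding genes were below both, and the exception was Rpl4 with a log2 ratio of 0.33. High salt library 1 was below high salt library 2 for 80 of 87 rows (median -0.65) and high salt library 3 for 69 of 87 (median -0.44). The spread within the normal diet group was larger than for other genes: the median coefficient of variation was 50.05% over 83 rows of at least 10 CPM, against 26.7% over all 8900 genes of that level. In the high salt group it was 27.2% against 18.6%. In liver the members' median was 18.1% against 21.6% on the normal diet and 24.7% against 13.9% on high salt, where HS5 and HS6 lay below both HS7 and HS8 for 79 of 85 and 75 of 86 rows. HS5 and HS6 were very close to each other, with a median absolute log2 difference over the members of 0.113, as were normal diet libraries 1 and 2 with 0.115. Other pairs within a liver group differed by 0.273 to 0.709.

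mRNA length moved with these differences. Ribosomal protein mRNAs are short, with a median of 751 bases. Other protein-coding genes with mRNAs under 1000 bases held 8.54%, 15.8% and 16.4% of the counts in kidney normal diet libraries 1 to 3 and 10.8%, 16.1% and 12.8% in high salt libraries 1 to 3. The 3 lowest kidney libraries were the same for both shares and in the same order (library 1 of the normal diet, then 1 and 3 of high salt). In normal diet library 1 against 2 and 3, the median log2 ratio of other protein-coding genes was -0.93 for mRNAs under 700 bases (214 genes), -0.67 from 700 to 1000 bases (374 genes), 0.21 from 1500 to 2500 bases and 0.66 from 4000 bases. Ribosomal protein families were lower than other genes of their length, with medians of -1.79 under 700 bases (40 families) and -1.39 from 700 to 1000 bases (22 families). HS5 and HS6 against HS7 and HS8 in liver showed the same order, with -0.61 for families and -0.30 for other genes under 700 bases. Liver normal diet libraries 3 and 4 against 1 and 2 did not. There families gave -0.12 and other genes -0.26 under 700 bases, and -0.33 and -0.36 from 700 to 1000 bases. The part of mRNA length or RNA quality in the ribosomal protein values was not tested. In whole tissue, fewer cells of a type and less RNA per cell cannot be told apart.

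Levels differed widely among the ribosomal protein rows. On the rows as deposited, high mean CPM in liver belonged to Rpl13a (529), Rpl4 (493), Rps3 (478), Rpl41 (416), Rplp0 (356), Rps14 (292), the pseudogene row Rps3a2 (290), Rpl32 (285) and Rpl8 (283). In kidney they were Rps24 (1648), Rpl41 (1001), Rpl13a (883), Rpl32 (709), Rps3 (608), Rps14 (452), Rps3a2 (451), Rps27l (443), Rps9 (437) and Rps25 (428). Rpl5, Rpl9, Rpl10, Rpl17 and Rps27, whose family counts lay mostly on copy rows, are missing from both lists. Per 1000 bases of mRNA and with the copies added, the highest families in liver were Rpl41 (1247 CPM per 1000 bases), Rps27 (1230), Rpl10 (1057), Rpl9 (937) and Rpl17 (899), and in kidney Rpl41 (3621), Rpl17 (2748), Rpl9 (2325), Rps27 (2162) and Rps25 (1896). This order depends on the annotated transcript chosen for each gene. Rps24 was the highest kidney family before the division (2316 CPM). Its chosen transcript has 1613 bases, of which 399 are coding, and gave 1436 CPM per 1000 bases. Across coding genes the level of the row and that of the family were only loosely related (Spearman's rho 0.36 in liver and 0.37 in kidney, a description over genes).

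In liver, high salt and normal diet were compared to ask whether the diet moves the ribosomal protein mRNAs. No row passed the test: 0 of 86 rows tested had an adjusted p under 0.05 (edgeR quasi-likelihood test, Benjamini-Hochberg adjustment over all genes), against 0.979% of the 15218 genes tested (0.572% higher and 0.407% lower on high salt). At an unadjusted p under 0.05 there were 10 of 86, a share of 11.6%, against 21.3% of all genes. That count hung on single libraries: it was 39 without HS7 (22.4% of all genes), 19 and 16 without normal diet libraries 3 and 4 (28.9% and 28.3%), 6 without normal diet library 2 (14.6%), 4 without HS5 or HS6 (13.4% and 13.2%) and 3 without normal diet libraries 1 and 2 together (16% of all genes). The fitted values nevertheless lay mostly on one side, with a log2 fold change (high salt over normal diet) below 0 for 81 of 86 rows against 52.4% of all genes, and a median of -0.31 against -0.03. Both subunits gave alike values, -0.29 for 50 rows of the 60S and -0.31 for 36 rows of the 40S subunit. The side depended on the scaling: with library size only and no TMM factors, 47 rows were below 0 and 39 above, and the median was -0.0438, beside a median of 0.25 over all genes. TMM factors were 0.854 to 0.974 in the normal diet and 1.00 to 1.18 in the high salt libraries. Without normal diet libraries 1 and 2 the median was -0.21, with 67 of 86 rows below 0 and 0 called. It was -0.19 without HS5 and -0.50 without HS7, and -0.19 with the close libraries HS5 and HS6 summed to 1.

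**Figure D3:**
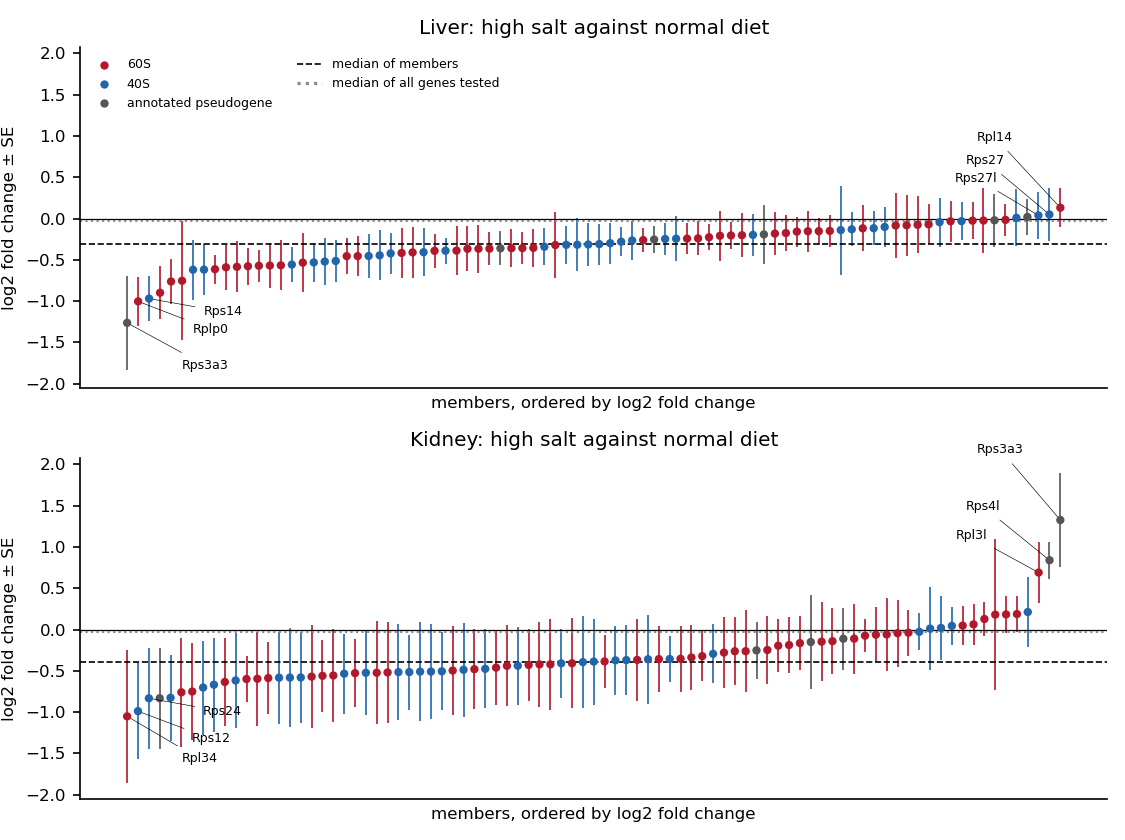
Log2 fold change (high salt over normal diet) with its standard error for each ribosomal protein row tested in liver (upper, 86 rows) and kidney (lower, 87 rows), ordered by value. Dashed lines mark the members' medians, -0.31 in liver and -0.39 in kidney, and dotted lines the medians of all genes tested, which lie next to 0.

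Rps14, Rplp0, Rpl7l1 and Rpl11 were among the liver rows with the smallest p-values. Rplp0 is the base of the stalk that recruits elongation factors. It had 562, 596, 287 and 326 CPM on the normal diet (libraries 1 to 4) and 262, 287, 298 and 233 CPM on high salt (HS5 to HS8). Libraries 1, 2 and 4 stood above the high salt range and library 3 lay within it. Its log2 fold change was -1.004 (SE 0.29, edgeR adjusted p = 0.118). Rps14, a 40S protein of the decoding platform, had 400, 455, 313 and 275 CPM against 176, 197, 298 and 218 CPM, with a log2 fold change of -0.97 (SE 0.27, edgeR adjusted p = 0.106). It was again highest in libraries 1 and 2, and 1 high salt library, HS7, reached into the normal diet range. Rpl7l1, a paralog of Rpl7 that works in the assembly of the 60S subunit, gave -0.57 and Rpl11, which binds beside Rpl5, gave -0.90; neither passed. With DESeq2 in place of edgeR 3 rows were called, Rps14 and Rplp0 among them, all lower on high salt, and edgeR without normal diet library 3 called 1, Rplp0. Without normal diet libraries 1 and 2 the values were smaller: Rplp0 gave -0.37, Rps14 -0.58, Rpl7l1 -0.18 and Rpl11 -0.56, with edgeR adjusted p = 0.402, 0.337, 0.553 and 0.510. No row had CPM values that separated the diets, against 15.2% of all genes. As families 0 of 81 passed (1.05% of all 15001 genes and families, 0.613% higher and 0.44% lower), 79 of 81 were below 0, 16 had an unadjusted p under 0.05 and the median was -0.38. Without normal diet libraries 1 and 2 the families' median was -0.18, with 68 of 81 below 0 and 1 at an unadjusted p under 0.05.

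Several measures moved with the diet in these liver libraries. The summed hepatocyte markers ran from 58567 to 79632 CPM on the normal diet and from 119885 to 123508 on high salt. In the fit, however, 4 of the 6 hepatocyte markers had a log2 fold change below 0, with a median of -0.17, and 0 were called. The summed markers of fibroblasts and stellate cells ran from 59.4 to 112 CPM on the normal diet and from 139 to 177 CPM on high salt. The 2 red cell markers ran from 489 to 1443 CPM and from 189 to 585. The share of other short mRNAs was 16.5% to 19.6% on the normal diet and 12.3% to 16.9% on high salt. Their part in the ribosomal protein values was not tested. Values below 0 in liver were also common to other nuclear genes for large complexes: 77 of 78 mitochondrial ribosomal proteins (median -0.40), 35 of 38 proteasome subunits (-0.38) and 69 of 75 respiratory chain subunits (-0.34), with 0 called in each list. At an unadjusted edgeR p under 0.05 there were 34, 16 and 12 genes of these lists, against 21.3% of all genes. In kidney, 51 of 78, 12 of 37 and 57 of 75 were below 0, with medians of -0.07, 0.13 and -0.23. Lists nearer in role were more mixed in liver. Of other translation mRNAs with the pyrimidine tract, 13 of 20 were below 0 (median -0.18). For ribosomal RNA transcription and ribosome assembly it was 17 of 35 (0.01), and for TORC1 and its control 11 of 23 (0.13).

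In kidney the same diet comparison gave 0 of 87 rows called by edgeR, where 0% of all 15674 genes were called, and DESeq2 also called 0 rows. At an unadjusted p under 0.05 there were 2 rows, Rps3a3 and Rps4l, against 2% of all genes. Without normal diet library 1 that count was 62 of 87 against 16.2% of all genes, still with 0 rows called. Without normal diet library 2 or 3 it was 1. The log2 fold change was below 0 for 74 of 87 rows against 53.8% of all genes, with a median of -0.39. That value depended on single libraries: it was -0.79 without normal diet library 1, -0.69 without high salt library 2, -0.24 without high salt library 1, -0.17 without normal diet library 2 and -0.14 without normal diet library 3. The median standard error of a row was 0.47, larger than the median change. As families 0 of 82 passed (0% of 15259) and 75 were below 0, with a median of -0.40. Diets did not overlap in CPM for 2 rows, Rpl3l and Rps4l, against 6.41% of all genes.

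Both of those rows were among the 13 of 87 with a log2 fold change above 0. Rps4l, annotated as a transcribed processed pseudogene (GRCm38 chr6:148354656-148355598, plus strand), had 6.09, 4.68 and 3.96 CPM on the normal diet and 9.44, 7.83 and 10.7 CPM on high salt. Every high salt library was above every normal diet library, and the log2 fold change was 0.84 (SE 0.23, edgeR adjusted p = 1.00). Rpl3l, the form of Rpl3 known from heart and skeletal muscle, had 1.62, 1.75 and 1.74 CPM against 2.31, 3.78 and 2.67 CPM, again without overlap, and a log2 fold change of 0.69 (SE 0.37, edgeR adjusted p = 1.00). Rps3a3, an annotated processed pseudogene, had 123, 44.7 and 39.3 CPM against 64.2, 243 and 213 CPM, with a log2 fold change of 1.33 (SE 0.56). Its normal diet library 1 lay above high salt library 1. Among coding genes, the 60S gene Rpl29 gave -0.60 (SE 0.28) and the 40S gene Rps12 gave -0.99 (SE 0.58), and neither passed.

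**Figure D4:**
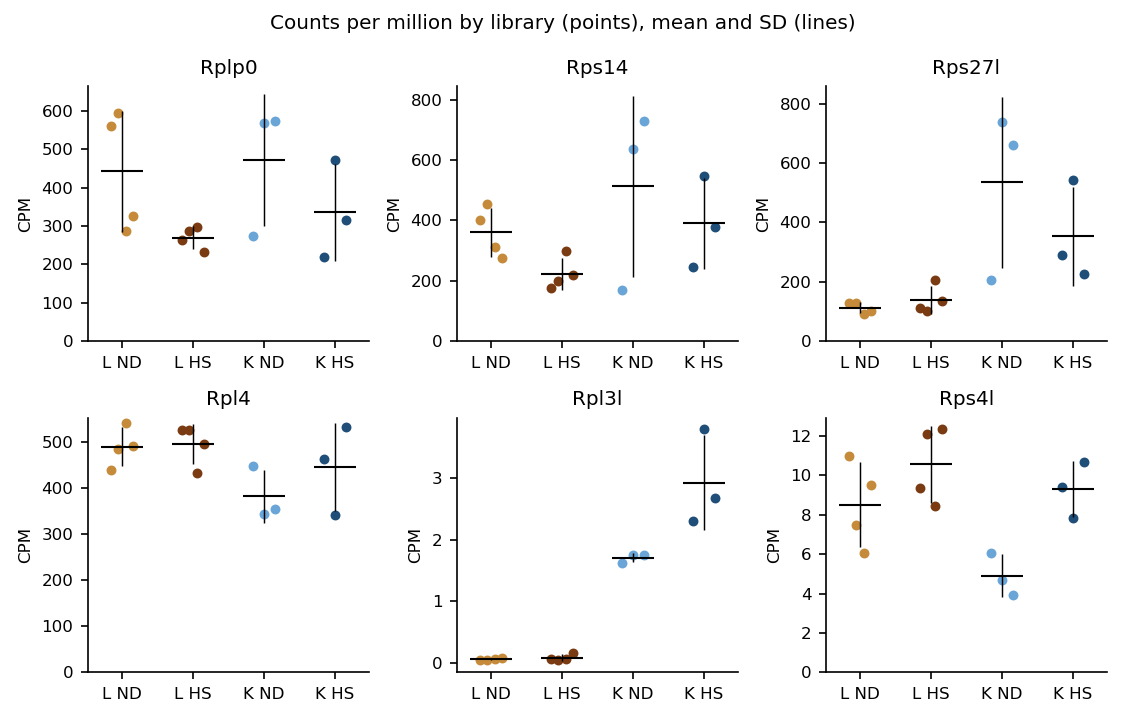
CPM of 6 ribosomal protein rows in each library (points), with group means and SDs (horizontal and vertical lines); L is liver, K kidney, ND normal diet and HS high salt, n = 4 per liver group and 3 per kidney group. Among liver libraries Rplp0 and Rps14 are highest in normal diet libraries 1 and 2, Rps27l reaches 738 CPM in kidney and 206 in liver, Rpl3l is at 0.167 CPM or less in every liver library, and Rps4l separates the kidney diets.

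Whether the diet acted differently in the tissues was tested as an interaction over all 14 libraries. No row passed (0 of 87 by edgeR, where 0% of 16878 genes were called, and 0 by DESeq2), and 3 rows had an unadjusted p under 0.05 against 9.74% of all genes. Rps3a3 (-2.55, SE 0.88) and Rps4l (-0.84, SE 0.33) were among them, where a negative value means a lower diet fold change in liver than in kidney. The members' median was 0.02, with 39 of 87 rows below 0 against 50.2% of all genes. Without liver libraries 1 and 2 the median was 0.24, with 28 of 87 rows below 0, beside a median of 0.07 over all genes. With library size only it was 0.19, with 25 rows below 0, beside 0.18 over all genes.

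Liver and kidney were then compared on the normal diet, in the same fit. By row, 35 of 87 were called, a share of 40.2% against 64% of all 16878 genes; 11 were higher in liver (32.1% of all genes) and 24 lower (32%). The 60S rows divided into 7 higher and 15 lower and the 40S rows into 4 higher and 9 lower, and the median log2 fold change (liver over kidney) was -0.37, with 50 rows below 0 against 49.9% of all genes. Most of the lower calls did not hold for families. Of the 24 rows called lower, 4 were also called lower as families and 20 were not called, while 10 of the 11 rows called higher were also called higher. Rpl3l was among those called lower both ways, and it entered the fit through its kidney counts. In all, 21 of 82 families were called (64.1% of all), 16 higher (32.2% of all) and 5 lower (31.8%) in liver, with a median of 0.14. Without TMM factors 57 rows were called, 56 of them lower in liver, with a median of -1.29 beside -0.95 over all genes, and 43 families were called lower and 3 higher, with a family median of -0.79. TMM factors were 0.650 to 0.772 in normal diet liver and 1.34 to 1.48 in normal diet kidney. Kidney normal diet library 1 also weighed on it: without it 48 rows were called and the median was -0.72, and it was -0.15 and -0.11 without libraries 2 and 3. Without liver libraries 1 and 2, 27 rows were called (6 higher, 21 lower), and 8 families (5 higher, 3 lower). The families' median then had the other sign, -0.11, with 47 of 82 below 0.

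The lowest rows in liver were mostly those whose family counts lay on copy rows. Rpl23a, a 60S protein at the tunnel exit, had 0.994, 1.12, 0.976 and 0.837 CPM in normal diet liver and 15.5, 24.3 and 29.1 CPM in normal diet kidney, and its row gave a log2 fold change of -3.57 (SE 0.30, edgeR adjusted p = 5.87e-08). The groups are far apart on the row. As a family it had 277, 314, 236 and 222 CPM against 355, 629 and 619 CPM, and the fold change was -0.05 (SE 0.26, edgeR adjusted p = 0.883). Rpl17 went from -3.47 on the row to -0.67 as a family, Rpl38 from -2.92 to -0.72 and Rpl5 from -2.41 to -0.68, and none of these families passed. The kidney table holds more copy rows for Rpl23a (14 against 6) and Rpl17 (31 against 16) than the liver table, and the 2 tissues were counted in separate tables.

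Rows that kept their calls with the copies added included Rps24, Rps27l and Rpl39 on the lower side and Rps2, Rpl4, Rpsa and Rplp1 on the higher side. Rps24, a 40S protein that is mutated in a congenital anemia, gave -2.08 on the row and -1.71 as a family (edgeR adjusted p = 0.00587 as a family). Rpl4, a 60S protein that lines the exit tunnel, kept 91.6% of its family counts on its own row in liver and 92.1% in kidney. It had 440, 486, 543 and 493 CPM in normal diet liver and 449, 344 and 355 CPM in normal diet kidney. Kidney library 1 lay within the liver range and the other kidney libraries below it, and the log2 fold change was 1.35 (SE 0.20, edgeR adjusted p = 2.90e-05). Without TMM factors the Rpl4 row gave 0.38 and was not called, and the rows of Rps2 and Rpl7l1 were not called either (0.48 and 0.33). Rps2, a 40S protein near the decoding site, gave 1.46 on the row and 1.75 as a family. Of the stalk proteins, Rplp1 was called higher in liver (0.81, edgeR adjusted p = 0.0430) and Rplp0 and Rplp2 were not (0.91 and 0.54); Rplp0 was called as a family (1.13). Rpsa, the 40S protein also known as the laminin receptor, was higher in liver by 0.94 on the row and 1.27 as a family. Several of these family calls were lost without liver libraries 1 and 2: Rplp0 gave 0.47, Rplp1 0.89, Rpsa 0.97, Rpl39 -1.19 and Rpl22l1 -1.28, with edgeR adjusted p = 0.309, 0.0780, 0.0527, 0.0735 and 0.121. Rps2, Rpl4, Rps24 and Rps27l were still called as families (1.42, 1.34, -1.94 and -1.51). Without TMM factors the families of Rpl4 (0.40), Rpsa (0.33), Rplp0 (0.16) and Rplp1 (0.09) were not called. Those of Rps2 (0.78), Rps24 (-2.64), Rps27l (-2.10) and Rpl39 (-2.06) were called without these factors.

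**Figure D5:**
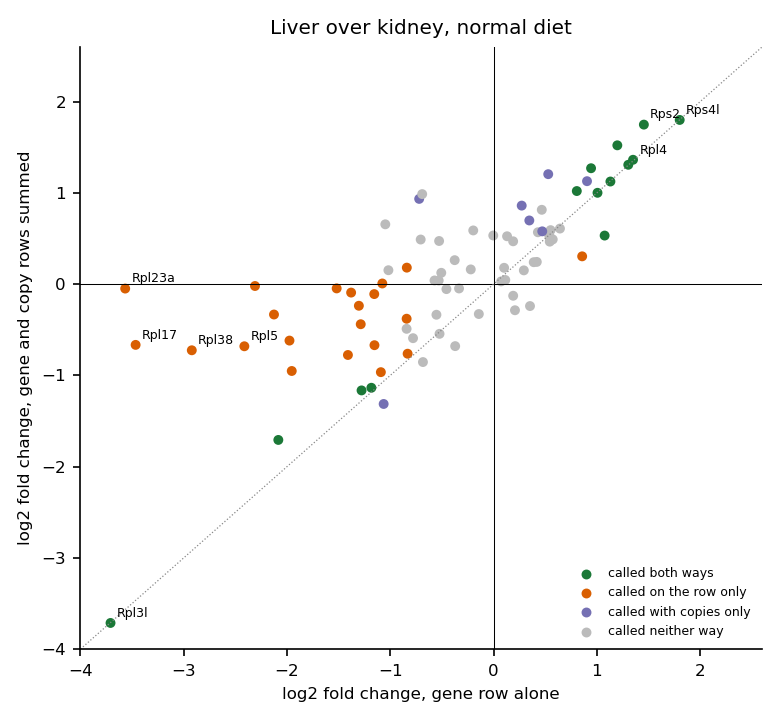
Log2 fold change of liver over kidney on the normal diet for gene rows alone (x axis) and for families of a gene and its copy rows (y axis), 1 point per gene, coloured by an edgeR adjusted p under 0.05; the dotted line marks equal values. Of the 24 rows called lower in liver on the x axis, 20 are not called as families and lie closer to 0 on the y axis (orange points at the left).

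Paralogs with a restricted pattern were low or uneven. Rpl3l had 0.0481, 0.0548, 0.0696 and 0.0803 CPM in normal diet liver, from 2 to 7 counts per liver library over both diets, against 20 to 43 counts per kidney library. It was the row furthest toward kidney (log2 fold change -3.71, SE 0.44). The row did not pass the count filter in liver and entered the tissue fit through its kidney counts. Its call in that fit therefore carries little weight. Of the muscle markers Acta1, Myh4, Myh6 and Ckm, only Myh6 had counts in kidney, at 2.21 to 2.84 CPM on the normal diet and 0.176 to 0.576 CPM on high salt. Its part in the Rpl3l values was not tested. Rps4l was the row furthest toward liver (1.80, SE 0.25). Rps27l, a paralog of Rps27 that the p53 protein can induce, had 127, 129, 91.4 and 101.9 CPM in normal diet liver and 204, 738 and 661 CPM in kidney (-1.28, SE 0.44, edgeR adjusted p = 0.0189). Rpl22l1, a paralog of Rpl22, was called lower in liver only as a family (-1.31; -1.06 on the row). Rpl39l, known from testis, had 13 counts over all liver libraries, with 3 libraries at 0, and was not tested. Rpl10l fits the naming rule but was not among the rows it found.

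Genes that share a role with the ribosomal proteins were taken from lists, and their tissue calls are to be read against 32.1% of all genes called higher in liver and 32% lower. Of 20 other mRNAs of translation known to carry the pyrimidine tract, 7 were higher in liver than in kidney and 4 lower; the 40S scaffold Rack1 gave -0.83 in the liver diet comparison (SE 0.30, edgeR adjusted p = 0.169). Of 35 genes of ribosomal RNA transcription and ribosome assembly, 24 were higher in liver and 2 lower, with a median of 0.87. The assembly factor Bop1 gave 1.93, from mean levels of 16.3 CPM in normal diet liver and 8.68 CPM in normal diet kidney. With library size only, the median over all genes moved to -0.95, and the lists were not fitted that way. Of 23 genes of TORC1 and its control of these mRNAs, 9 were higher in liver and 3 lower, among them the kinase Mtor (-1.30, edgeR adjusted p = 2.7e-04) and the translation repressor Eif4ebp1 (4.62). No gene of these 3 lists was called by diet in either tissue with edgeR, and at an unadjusted p under 0.05 there were 7, 6 and 6 in liver, where 21.3% of all genes passed, and 0, 1 and 0 in kidney, where 2% did. Larp1 had 25.2, 24.5, 63.3 and 55.7 CPM in normal diet liver and 88.7, 89.04, 57.8 and 85.4 CPM on high salt, and a log2 fold change of 0.67 (SE 0.29, edgeR adjusted p = 0.217). In kidney it ran opposite to the ribosomal protein share, with 127, 45.4 and 43.4 CPM on the normal diet and 90.7, 48.6 and 78.9 CPM on high salt. Other protein-coding genes with mRNAs of at least 4000 bases ran much the same way, with 20.9%, 14.1% and 14.2% of the counts on the normal diet and 18.2%, 14.7% and 16.6% on high salt. Fau, a ribosomal protein made as a fusion with a ubiquitin-like protein, was not called between tissues (-0.87, edgeR adjusted p = 0.0501).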

How the data were processed

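RNA libraries were made with the SMARTer mRNA-Seq kit from total RNA, per the labels' protocols. The submitters' processing notes name STAR 2.5.3a, Partek 7.0, DESeq2 and mm10, with no role given. The authors deposited expected counts per gene from an expectation-maximisation step, per the file headers and names; no per-sample column was left unused (0). A second pair of deposited tables holds normalized signal values, used only in limma 3.58.1 on log2(value + pseudocount), pseudocounts 1 and 0.1. Counts were rounded and tested with edgeR 4.0.16 in R 4.3.3 (quasi-likelihood, TMM, filterByExpr, mt- rows left out), each tissue apart for diet, and all 14 libraries for the interaction and the tissue comparison. DESeq2 1.42.0 was an alternative. Copy rows (annotated pseudogenes or single-exon rows) were matched with blastn 2.17.0. Gene models are GENCODE M21; file and GENCODE starts agree for all 88 rows. In simulated counts where 200 genes carried a log2 change of 2, the fits recovered 180 (liver), 160 (kidney), 87 (interaction) and 152 (tissue), over 14942, 15340, 16639 and 16582 genes. False calls were 12, 14, 3 and 7. That change is far larger than the members' diet medians, and the recovery of smaller changes was not tested. Members, lists and tests were chosen with earlier results of these data known. Named rows are the 5 smallest p-values of a comparison, or the 5 highest and 5 lowest called fold changes, the 10 highest levels per tissue, stalk proteins, Rpsa, paralogs and up to 3 genes per list; Rps27, Rps3a2, Rpl9 and Rpl10 were added for their copies after their values were seen. A few genes that these rules would name are not reported here.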

Additional observations from a re-analysis of the deposited data

Results flagged for a closer look

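In the liver groups of 4, 42 group values were examined for a library far from the other 3, and 3 stood out; chance alone flags about 1 in 20. The pseudogene row Rps3a3 had 131 CPM in normal diet library 3, against 18.6, 22.7 and 24.0 CPM in libraries 1, 2 and 4. Rpl3l had 0.167 CPM in HS8, from 7 counts, against 0.0541 to 0.0721 CPM in the other high salt libraries. Rpl5 had 12.2 CPM in HS7 against 6.84 to 7.03 CPM in the others, on a row that holds 1.12% of the counts of the gene and its copies.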

How the results depend on the processing

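Of 137 recomputed counts and medians, 130 stayed within 1.5 times the count or within 1 SD between libraries of the median, which was 0.24 for the liver diet, 0.51 for the kidney diet and 0.43 between tissues. That measure is a loose one. The kidney diet SD was larger than the size of the median (-0.39), so medians of -0.79 and -0.14 both counted as unmoved. For the kidney diet and the interaction 0% of all genes were called, so their counts had little room to move. No row named as called changed sign, but the tissue median did with families. In the liver diet comparison the median of the members was -0.0438 with library size only, and members called were 3 with DESeq2. In the tissue comparison 57 rows were called and the median was -1.29 with library size only, and 21 and 0.14 with families, an alternative chosen after seeing the data. The cause was not tested. Leaving out libraries gave 0 to 1 rows called and medians of -0.50 to -0.19 for the liver diet, 0 rows called and medians of -0.79 to -0.14 for the kidney diet, 0 rows called for the interaction, and 26 to 48 rows called with medians of -0.72 to -0.11 between tissues. Kidney samples with the same number did not all deviate together (correlations of 0.47, 0.45 and -0.12), so the numbers were not taken as pairs; with the replicate block 0 rows were called and the median was -0.26. The replicate numbers of liver could not be used, as the high salt columns carry none. With 3 or 4 libraries per group the median standard error of a row was 0.25 in liver and 0.47 in kidney, and values over 3 times their standard error (Rplp0, Rps14) did not pass the adjustment.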
